A study of Mus musculus with 30 samples.

Results

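The late recovery of mouse forelimb buds from a block of WNT secretion was followed between 18 h and 24 h after the injection of Wnt-C59 (C59). The samples were chosen by their labels as the C59-treated libraries of these time points, 3 at 18 h and 3 at 24 h, which makes 6 of the 30 libraries of the series. Pregnant wild-type mice of the Swiss Albino strain had received C59 by intraperitoneal injection at embryonic stage E10.5, and controls had received DMSO by the same route. The methods describe DMSO in PBS for controls, and for C59 a DMSO and PBS vehicle that also held methylcellulose and a detergent. The 6 DMSO libraries of 18 h and 24 h are used below to show where the C59-treated limb buds changed in another way than control limb buds of the same interval. All groups were collected as polyA RNA from whole forelimb buds and carried no genetic alteration. Embryos at 24 h were other embryos than those at 18 h. The drug reached them through the mother, so the dose in each limb bud is not known, and RNA of mesenchyme, ectoderm, blood, vessels and muscle precursors was pooled in every library. In such bulk samples fewer cells of a type and less RNA per cell cannot be told apart.

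C59 inhibits porcupine, the enzyme that attaches a lipid to WNT ligands and without which they do not leave the cell. In the limb bud, ectodermal and mesenchymal WNT ligands keep distal mesenchymal progenitors proliferating and undifferentiated, and act together with FGF ligands of the apical ectodermal ridge, with Sonic hedgehog of the posterior mesenchyme and with BMP ligands and their antagonists. When the WNT signal is low, core mesenchyme condenses and enters the cartilage lineage, while muscle precursors that migrated from the somites differentiate in the dorsal and ventral masses. The question of this interval is which of these programs changed in C59-treated limb buds while they returned towards the control state.

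The 6 C59 libraries held between 19990377 and 25590744 counts, and the 30 libraries of the series between 18188636 and 38974885. *Tbx5*, the forelimb identity factor, stood at 294 ± 13.2 CPM (SD, n = 3) at 18 h and 318 ± 15.3 CPM (SD, n = 3) at 24 h, and *Tbx4*, the hindlimb factor, at 15.5 ± 1.09 CPM and 11.8 ± 1.17 CPM. CPM are counts scaled to the effective size of each library. C59 18 h replicate 3 stood apart, with a chi-square per degree of freedom of 47.4 and 39.6 against the other 2 libraries of its group, which differed from each other by 4.31. Its deviation from the group mean ran with the GC content of the genes, with a median of -0.32 (log2) in the fifth of genes lowest in GC and of 0.179 in the highest. C59 24 h replicate 1 deviated in the same sense, by -0.145 and 0.083, and the plot of these deviations shows smaller values in the DMSO libraries. The change from 18 h to 24 h also ran with transcript length in C59, from a median log2 fold change of 0.067 in the fifth of genes with the shortest transcripts to -0.164 in that with the longest, against -0.007 and -0.017 in DMSO. Without C59 18 h replicate 3 these medians in C59 were 0.133 and -0.237, so leaving it out did not lessen the length trend. Values without that library, and values of a fit with GC and length offsets, are given for a part of the lists and genes where they differ. RNA of both *Xist* and Y-linked genes was present in 4 of the 6 libraries. The methods describe the dissection of several pairs of limb buds but RNA of a single pair for each replicate.

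**Figure D1:**
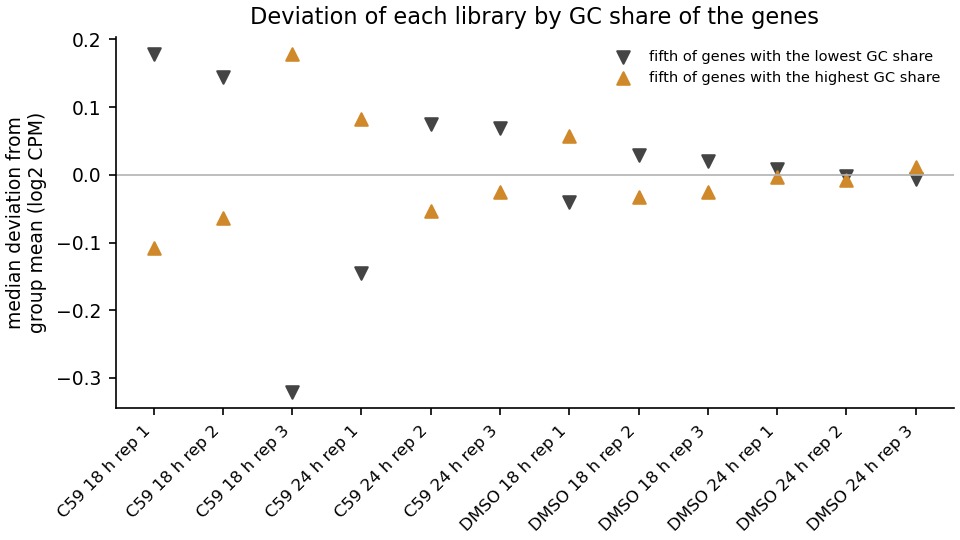
Median deviation of each library from the mean of its group (vertical axis, log2 CPM) for the fifth of genes with the lowest GC share (downward triangles) and the fifth with the highest (upward triangles), in the 12 libraries of C59 and DMSO at 18 h and 24 h. C59 18 h replicate 3 lay at -0.32 and 0.179, whereas the DMSO libraries stayed between -0.04 and 0.058.

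Between 18 h and 24 h, 390 of 13550 protein-coding autosomal genes were called in the C59-treated limb buds, which is 2.88% of those tested. A gene was called when its p from edgeR's quasi-likelihood F test stayed below 0.05 after Benjamini-Hochberg adjustment and its log2 fold change went beyond 1, and all adjusted p-values below are of this kind. Increases numbered 253 (1.87%) and decreases 137 (1.01%). Without the minimum fold change 740 genes rose (5.46%) and 851 fell (6.28%), so that increases outnumbered decreases among the called genes only. Of the same genes, 1509 rose and 1837 fell without C59 18 h replicate 3, and 1439 rose and 1385 fell with GC and length offsets. The median log2 fold change over all tested genes was -0.004. The DMSO libraries of the same interval gave 175 calls among 13563 genes (1.29%), of which 154 were increases (1.14%) and 21 decreases (0.155%), while 1314 passed the adjusted p alone (9.69%). Of the genes called higher in C59, 86 were also called higher in DMSO, which is 34% of the C59 list and 55.8% of the DMSO list, and for decreases the shared genes numbered 5, or 3.65% and 23.8%. The change in C59 differed from that in DMSO for 960 of 13794 genes at an adjusted p below 0.05 (6.96%), 487 with a higher value in C59 (3.53%) and 473 with a lower one (3.43%), and for 175 the difference also went beyond 1 (1.27%). That test of the difference between the changes, an interaction contrast over 12 libraries, was passed by 40 of the 253 genes called higher in C59 and by 63 of the 137 called lower. Without C59 18 h replicate 3, 314 increases and 192 decreases were called, which included 228 of the 253 and 121 of the 137. With GC and length offsets the counts were 283 and 134, which included 230 and 94 of them.

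**Figure D2:**
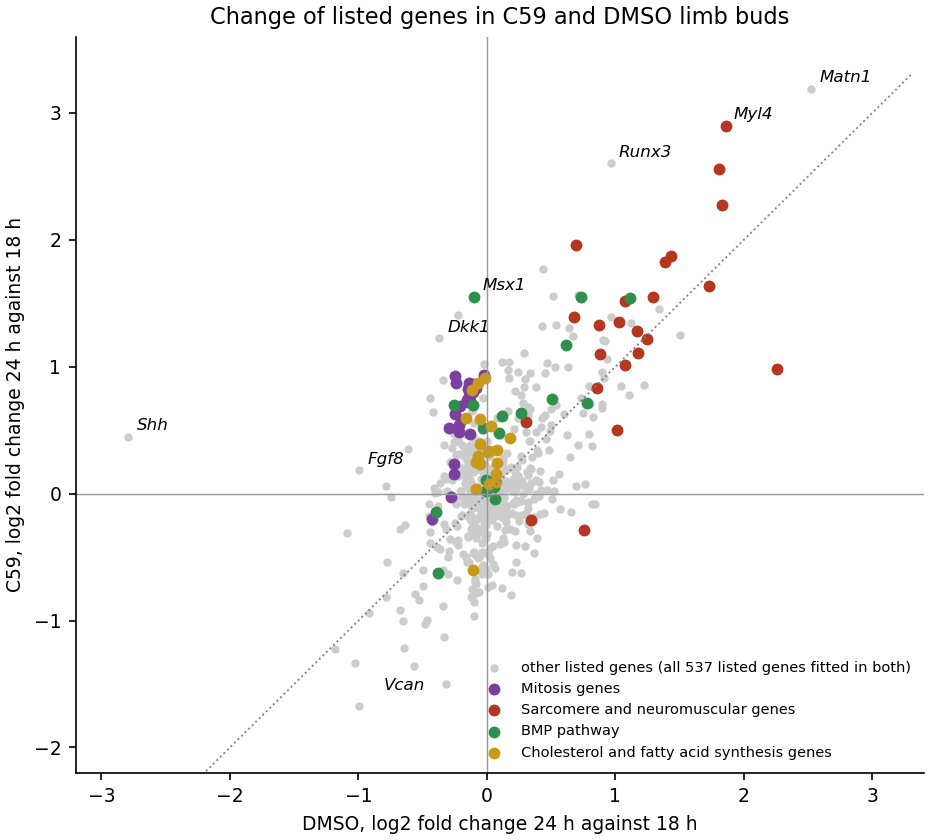
Log2 fold change from 18 h to 24 h in DMSO limb buds (horizontal axis) and in C59-treated limb buds (vertical axis) for 537 listed genes fitted in both, with genes of 4 lists in colour and the dotted line marking equal change. Mitosis genes lay left of the vertical axis, at negative values in DMSO, while 23 of 25 were positive in C59, and most sarcomere genes were positive in both.

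Genes of the WNT pathway were examined first. Among 15 feedback and target genes, 5 rose, none fell, and *Dkk1* and *Lgr6* were called. Without C59 18 h replicate 3, 5 rose and 1 fell, and with offsets 6 rose and 3 were called. *Axin2* (ENSMUSG00000000142, chr11:108920349-108950783), the feedback inhibitor most often used as a readout of canonical WNT signaling, stood at 105, 89.1 and 98.2 CPM at 18 h and 114, 102 and 99.2 CPM at 24 h, and its 3 libraries at 24 h overlapped those at 18 h. Its log2 fold change was 0.07 ± 0.10 (SE, adjusted p 0.716), and DMSO libraries held 111, 109 and 110.3 CPM at 18 h and 118, 111 and 107 CPM at 24 h. The lowest group mean of *Axin2* in the series, 28.2 ± 1.51 CPM (SD, n = 3), belonged to C59 at 6 h. The C59 libraries of 12 h averaged 40.4 ± 2.87 CPM. *Nkd1*, *Notum*, *Lef1* and *Tcf7* had log2 fold changes between -0.10 and 0.17, none of which passed the test.

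*Dkk1* (ENSMUSG00000024868, chr19:30545863-30549665), a secreted antagonist of the LRP5/6 co-receptors, stood at 2.06, 2.25 and 2.30 CPM at 18 h and 5.12, 5.93 and 4.84 CPM at 24 h, with no overlap between the time points. Control libraries held 12.6, 10.2 and 8.75 CPM at 18 h and 9.06, 8.16 and 7.57 CPM at 24 h. The rise in C59 was 1.22 ± 0.17 (adjusted p 0.00392), and it differed from the DMSO change by 1.60 ± 0.23 (adjusted p 0.00132). At 24 h all 3 C59 libraries still lay below the 3 DMSO libraries, and the difference of -0.62 ± 0.15 (adjusted p 0.0535) did not pass the test. *Apcdd1*, a membrane-bound WNT inhibitor, rose by 0.78 ± 0.12 (adjusted p 0.00491), *Fzd10*, a WNT receptor, by 0.59 ± 0.10 (adjusted p 0.0083), and *Nkd2*, an intracellular feedback inhibitor, by 0.41 ± 0.10 (adjusted p 0.038). For each of these 3 genes the change was larger than in DMSO, by 0.52, 0.52 and 0.66 (interaction adjusted p 0.0348, 0.0294 and 0.00496). *Lgr6*, an R-spondin receptor, stood at 2.95, 2.10 and 2.35 CPM at 18 h and 5.50, 4.50 and 5.72 CPM at 24 h and rose by 1.04 ± 0.20 (adjusted p 0.0123), a call lost at 0.94 without C59 18 h replicate 2, at 0.99 without C59 24 h replicate 1 and at 0.98 without C59 24 h replicate 3.

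Of 15 WNT ligands, *Wnt16* alone rose in C59, by 1.31 ± 0.27 (adjusted p 0.0179), while 2 ligands rose without C59 18 h replicate 3 and 2 with offsets. The levels of *Wnt16* were low, at 0.608, 0.899 and 0.863 CPM at 18 h and 1.79, 2.40 and 1.84 CPM at 24 h. The call was lost when C59 18 h replicate 1 or 2 or C59 24 h replicate 2 or 3 was left out, with adjusted p-values of 0.0625, 0.0504, 0.0911 and 0.0508. *Wnt5a*, the main ligand of the distal mesenchyme, stood at 338, 313 and 269 CPM at 18 h and 269, 319 and 315 CPM at 24 h, and the ectodermal ligands *Wnt3*, *Wnt6*, *Wnt7a* and *Wnt7b* had values of -0.13 to 0.04, none of which passed the test. In DMSO 3 ligands rose, *Wnt11* by 0.51 ± 0.07, *Wnt4* by 0.28 ± 0.07 and *Wnt7b* by 0.24 ± 0.06. None of the 15 differed between the treatments in its change.

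Secreted modulators of WNT signaling moved in both directions. Among 15 tested, 5 rose and 5 fell, 3 and 2 of them called. With offsets 1 was called higher (*Sfrp5*) and 3 lower (*Rspo2*, *Rspo4* and *Sost*). The genes that rose, *Sostdc1*, *Dkk2*, *Dkk3*, *Wif1* and *Sfrp5*, belong to families of extracellular antagonists. Those that fell were the antagonists *Sost*, *Frzb* and *Sfrp2* and the agonists *Rspo2* and *Rspo4*. *Sost* (ENSMUSG00000001494, chr11:101962458-101967015), which encodes the LRP antagonist sclerostin, fell from 13.9, 11.9 and 17.4 CPM to 6.37, 5.93 and 4.99 CPM, a change of -1.36 ± 0.17 (adjusted p 0.00288). *Sostdc1*, its relative, moved the other way, from 10.9, 14.7 and 14.3 CPM to 30.5, 29.8 and 28.4 CPM (1.11 ± 0.13, adjusted p 0.00247). The 3 libraries of each time point did not overlap for either gene. *Rspo2* and *Rspo4*, ligands that strengthen WNT reception, had changes of -1.0 ± 0.12 and -1.33 ± 0.18 in C59 and of -0.47 ± 0.10 and -1.03 ± 0.13 in DMSO. The decreases of *Rspo2* and *Sost* exceeded those of DMSO, with differences of -0.53 ± 0.15 and -0.79 ± 0.21, and the increases of *Sostdc1*, *Dkk2* and *Wif1* were larger as well, with differences of 0.82 ± 0.16, 0.57 ± 0.13 and 0.50 ± 0.11 (interaction adjusted p between 0.00852 and 0.0479).

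*Sfrp2* (ENSMUSG00000027996, chr3:83766321-83774316), a soluble frizzled-related protein, stood at 229, 254 and 244 CPM at 18 h and 169, 179 and 168 CPM at 24 h in C59 and at 127, 122 and 113 CPM at 18 h and 132, 146 and 152 CPM at 24 h in DMSO. It fell by 0.54 ± 0.08 (adjusted p 0.00506) in C59 while its DMSO value was 0.23 ± 0.07 (adjusted p 0.055), and the difference of the changes was -0.77 ± 0.11 (adjusted p 0.00125). *Sulf1*, an extracellular sulfatase that edits heparan sulfate, was likewise higher in C59 than in DMSO at 18 h, but passed the test in DMSO and not in C59. It held 181, 213 and 187 CPM at 18 h and 170.2, 183 and 215 CPM at 24 h in C59. In DMSO it held 113, 139 and 118 CPM at 18 h and 229.7, 219 and 227 CPM at 24 h. Its C59 change of -0.08 ± 0.11 did not pass the test (adjusted p 0.692), the DMSO rise was 0.84 ± 0.07 (adjusted p 0.000449), and the difference was -0.92 ± 0.14 (adjusted p 0.00169). At 24 h neither gene differed between treatments past the threshold (0.27 ± 0.08 and -0.24 ± 0.10, adjusted p 0.097 and 0.252). *Sfrp5* stood at 0.0935, 0 and 0.336 CPM at 18 h and 0.583, 1.44 and 1.94 CPM at 24 h, and its rise of 3.08 ± 0.75 (adjusted p 0.032) was lost when C59 18 h replicate 1 or 2 or C59 24 h replicate 2 or 3 was left out, with adjusted p-values of 0.0962, 0.082, 0.109 and 0.11. *Dkk2* passed the fold limit narrowly (1.03 ± 0.10) and fell under it without C59 18 h replicate 3 (0.99), without C59 24 h replicate 3 (0.99) and with offsets (0.96).

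Of 19 members of the BMP pathway, 12 rose, *Grem1* fell, and 4 were called, with a median log2 fold change of 0.608 against 0.057 in DMSO. The number that rose was 12 without C59 18 h replicate 3 and 12 with offsets, but 7 without C59 18 h replicate 1 and 6 without C59 24 h replicate 2 or replicate 3. For 6 members the change was larger than in DMSO (*Msx1*, *Id2*, *Id1*, *Msx2*, *Id3* and *Bmp2*), and for none was it smaller, a count that ran from 4 to 7 when single libraries were left out.

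*Msx1* (ENSMUSG00000048450, chr5:37820485-37824583), a homeobox gene induced by BMP and WNT signals in distal mesenchyme, held 34.2, 28.4 and 27.0 CPM at 18 h and 89.3, 93.7 and 87.8 CPM at 24 h in C59. The lowest library at 24 h thus lay far above the highest at 18 h. Its DMSO libraries held 116, 104 and 117 CPM at 18 h and 108, 103 and 107 CPM at 24 h. The log2 fold change was 1.55 ± 0.11 (adjusted p 0.000639) in C59 and -0.10 ± 0.06 (adjusted p 0.276) in DMSO, with a difference of 1.66 ± 0.12 (adjusted p 2.79e-05). At 24 h the gap to DMSO was -0.22 ± 0.09 (adjusted p 0.239), after one of -1.88 ± 0.09 (adjusted p 1.25e-07) at 18 h. *Msx2*, its paralog, rose by 0.52 ± 0.11 (adjusted p 0.021).

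*Id1*, *Id2*, *Id3* and *Id4*, which encode helix-loop-helix inhibitors and are direct BMP targets, rose by 0.69 ± 0.17, 0.69 ± 0.18, 0.61 ± 0.09 and 1.18 ± 0.30 (adjusted p 0.0315, 0.0387, 0.00519 and 0.0384). *Id1* stood at 73.7, 73.0 and 114 CPM at 18 h and 149, 148 and 137 CPM at 24 h, so that C59 18 h replicate 3 was the highest of its group and still below the later libraries. Without that library *Id4* stayed below the fold limit (0.89, adjusted p 0.0062). When C59 18 h replicate 1 or C59 24 h replicate 2 or 3 was left out, its adjusted p was 0.0829, 0.128 and 0.14. *Smad9*, a receptor-regulated SMAD, stood at 2.67, 3.35 and 3.02 CPM at 18 h and 7.21, 8.65 and 11.4 CPM at 24 h and rose by 1.55 ± 0.20 (adjusted p 0.00307), whereas the inhibitory *Smad6* and *Smad7* changed by 0.05 ± 0.09 and 0.08 ± 0.09.

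Among the ligands, *Bmp2* rose by 0.64 ± 0.09 and *Bmp5* by 0.75 ± 0.13, while *Bmp4* (-0.14 ± 0.10) and *Bmp7* (0.11 ± 0.09) did not pass the test. The antagonists went opposite ways. *Nog*, the noggin gene, rose from 8.89, 9.64 and 6.62 CPM to 21.6, 26.3 and 27.6 CPM (1.54 ± 0.16, adjusted p 0.00165), and *Grem1* (ENSMUSG00000074934, chr2:113746164-113758646), the antagonist that links SHH to the ridge FGFs, fell from 78.2, 67.2 and 65.1 CPM to 47.5, 48.8 and 44.4 CPM (-0.62 ± 0.10, adjusted p 0.00635). Both moved the same way in DMSO, with 1.12 ± 0.13 for *Nog* and -0.38 ± 0.09 for *Grem1*, and the differences of 0.43 ± 0.22 and -0.24 ± 0.14 did not pass the test (adjusted p 0.26 and 0.314).

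**Figure D3:**
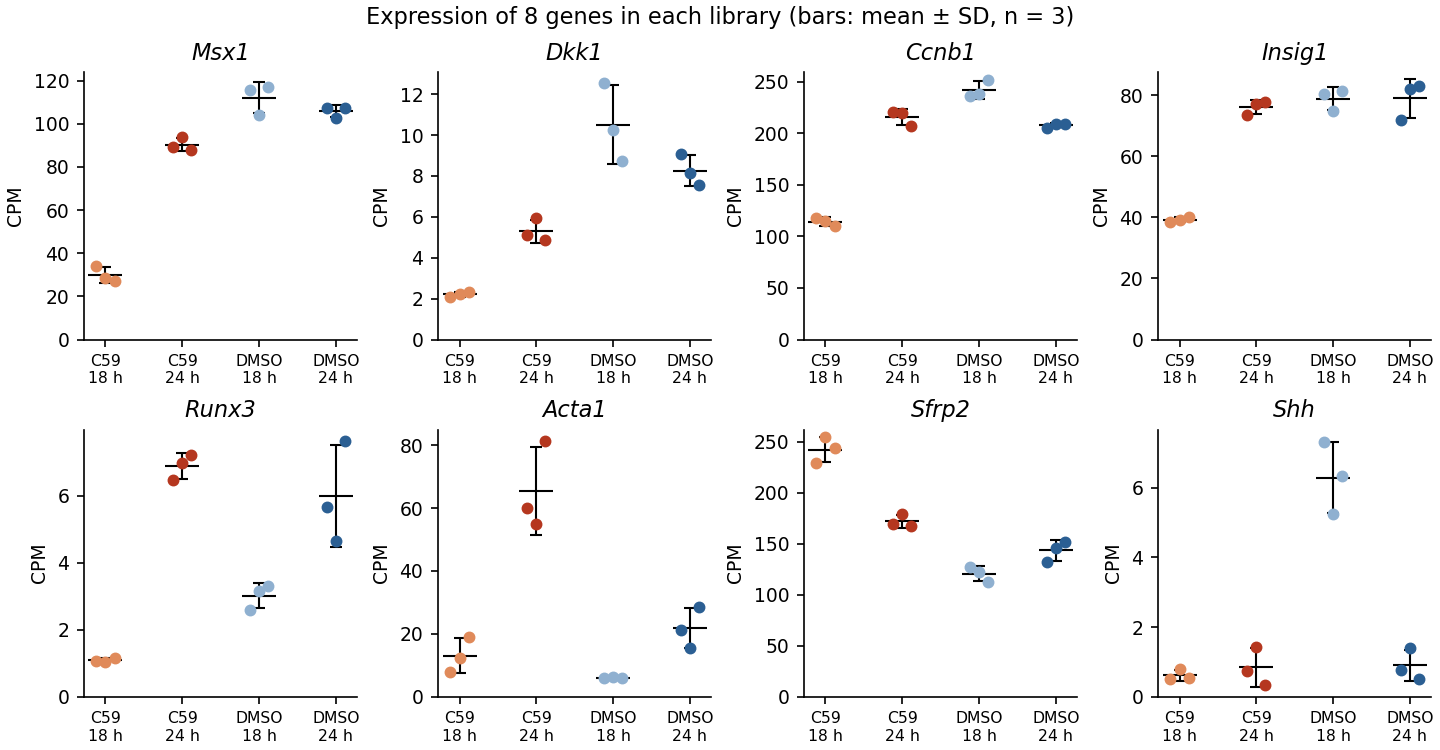
Expression of *Msx1*, *Dkk1*, *Ccnb1*, *Insig1*, *Runx3*, *Acta1*, *Sfrp2* and *Shh* in CPM (vertical axes, from 0) in the 3 libraries of each of 4 groups, with bars for the mean and SD (n = 3). *Msx1* rose in C59 from a mean of 29.9 to 90.2 CPM beside 106 CPM in DMSO at 24 h, *Ccnb1* and *Insig1* reached the DMSO level, and *Shh* stayed at or below 1.44 CPM in both C59 groups.

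In the FGF pathway the changes lay mainly among target genes. Of 19 genes, *Etv4*, *Etv5*, *Spry4* and *Fgfr3* rose, *Il17rd* fell, and none was called. Without C59 18 h replicate 3, 6 rose and 1 fell, and the same numbers did with offsets. *Etv4* (ENSMUSG00000017724, chr11:101769742-101785371), an ETS factor induced by ridge FGFs, held 33.7, 32.5 and 39.1 CPM at 18 h and 67.2, 60.6 and 54.8 CPM at 24 h in C59 against 73.5, 66.8 and 71.6 CPM at 18 h and 54.5, 54.6 and 49.0 CPM at 24 h in DMSO. It rose by 0.75 ± 0.12 in C59 and fell by 0.44 ± 0.06 (adjusted p 0.00323) in DMSO, a difference of 1.20 ± 0.14 (adjusted p 0.000411). *Etv5* and *Spry4*, a further target and a feedback inhibitor, differed from DMSO by 0.55 and 0.76 (interaction adjusted p 0.00766 and 0.00268).

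The ridge ligand *Fgf8* (ENSMUSG00000025219, chr19:45736798-45742915) stood at 10.7, 6.79 and 8.44 CPM at 18 h and 10.8, 12.6 and 6.88 CPM at 24 h, with overlapping groups. Its change in C59 was 0.18 ± 0.24 (adjusted p 0.678), in DMSO -1.0 ± 0.12 (adjusted p 0.00121), with a difference of 1.19 ± 0.29 (adjusted p 0.0238). DMSO libraries went from 14.7, 12.8 and 15.7 CPM to 6.64, 7.85 and 7.21 CPM. *Fgf4* lay under 1 CPM on average in both C59 groups, *Fgf10*, the mesenchymal ligand, changed by -0.17 ± 0.16, and *Dusp6*, an ERK phosphatase, by 0.09 ± 0.11. *Fgfr3*, a receptor of the cartilage lineage, rose by 0.72 ± 0.10 (adjusted p 0.00341).

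In the hedgehog pathway 1 of 12 genes rose (*Gli1*) and 1 fell (*Gli2*), while 3 fell without C59 18 h replicate 3 and 3 rose with offsets. *Shh* (ENSMUSG00000002633, chr5:28456815-28467256) was near its limit of detection in C59, at 0.514, 0.799 and 0.527 CPM at 18 h and 0.75, 1.44 and 0.339 CPM at 24 h. DMSO libraries fell from 7.30, 5.25 and 6.32 CPM to 0.772, 1.41 and 0.515 CPM (-2.79 ± 0.29, adjusted p 0.000828), so that the 2 treatments overlapped at 24 h. The difference of the changes was 3.26 ± 0.62 (adjusted p 0.00743). *Gli1*, a target of the pathway, rose by 0.50 ± 0.13 (adjusted p 0.0419), *Ptch1* changed by 0.01 ± 0.10 (adjusted p 0.976), and *Gli2*, a transducer, fell by 0.55 ± 0.10 (adjusted p 0.00988). With GC and length offsets the value of *Ptch1* was 0.33 ± 0.06 and passed the test (adjusted p 0.0037).

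Of the 38 lists, the mitosis genes were the one with the largest share of members whose change differed between the treatments. Of 25 genes that act in the G2 phase and in mitosis, 19 rose in C59 and none fell, with a median log2 fold change of 0.729, and none passed the fold limit. In DMSO all 25 values were negative, with a median of -0.154, and 7 fell. The change was larger in C59 for 21 of 25 genes (interaction), a count of 16 to 21 without single libraries and of 25 with offsets. The number that rose was 21 without C59 18 h replicate 3 and 22 with offsets, 12 without C59 18 h replicate 2 or C59 24 h replicate 1, and 10 without C59 24 h replicate 2. At 24 h the list lay level with DMSO, with a median difference of 0.003 and no gene past the test, after a median of -0.847 at 18 h.

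The genes that rose included *Cdk1* and its cyclins *Ccna2*, *Ccnb1* and *Ccnb2*, the spindle kinases *Aurka*, *Aurkb* and *Plk1*, the checkpoint genes *Bub1*, *Bub1b* and *Ttk*, and *Cdc20* and *Ube2c*, which act in the destruction of cyclins. *Ccnb1* (ENSMUSG00000041431, chr13:100778650-100786570), which encodes cyclin B1, held 118, 115 and 110.4 CPM at 18 h and 221, 219.8 and 208 CPM at 24 h in C59 and 236, 239 and 252 CPM at 18 h and 206, 209 and 209.6 CPM at 24 h in DMSO. Each library at 24 h lay well above those at 18 h in C59. It rose by 0.87 ± 0.08 (adjusted p 0.00125) in C59 and fell by 0.24 ± 0.04 (adjusted p 0.00958) in DMSO, a difference of 1.11 ± 0.09 (adjusted p 2.79e-05). Its level in C59 at 12 h had been 179 ± 16.3 CPM (SD, n = 3), higher than at 18 h. *Cdk1* (ENSMUSG00000019942, chr10:69335146-69352938), its kinase, stood at 96.6, 89.8 and 81.8 CPM at 18 h and 166, 172 and 162 CPM at 24 h and rose by 0.85 ± 0.09 (adjusted p 0.00165). *Aurkb*, of the chromosomal passenger complex, stood at 54.9, 53.7 and 54.6 CPM at 18 h and 103, 104 and 97.9 CPM at 24 h and rose by 0.86 ± 0.08 (adjusted p 0.00125), *Plk1*, a kinase of spindle assembly, by 0.80 ± 0.10 (adjusted p 0.00288), *Bub1*, of the spindle checkpoint, by 0.93 ± 0.17 (adjusted p 0.00982), and *Ube2c*, an enzyme of cyclin destruction, by 0.87 ± 0.10 (adjusted p 0.00225). The 6 members that did not pass were *Ndc80* (0.72 ± 0.20), *Top2a* (0.48 ± 0.17), *Knl1* (0.23 ± 0.30), *Cenpe* (0.16 ± 0.27), *Cenpf* (-0.03 ± 0.20) and *Mki67* (-0.20 ± 0.20). The last 4 have transcripts of 7800 to 11130 bases, beyond the median of 6920 in the fifth of genes with the longest transcripts, and with offsets their values were 0.38, 0.32, 0.31 and 0.11.

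Of 29 DNA replication genes *Tyms*, *Gins1*, *Rrm2*, *Cdc45* and *Pcna* rose and none fell, with a median of 0.183, against a median of -0.16 and 11 decreases in DMSO. Without C59 18 h replicate 3, 9 rose, and with offsets 10 rose and *Mcm4* fell. The change was larger in C59 for 10 of the 29. *Tyms*, which makes thymidylate, stood at 96.7, 88.4 and 109 CPM at 18 h and 159, 148 and 139.8 CPM at 24 h and rose by 0.56 ± 0.10 (adjusted p 0.0122). *Mcm2* to *Mcm6*, of the replicative helicase, had values of -0.20 to 0.02, none of which passed the test. *Mcm7* was at 0.06 ± 0.12 in C59 while it fell by 0.78 ± 0.12 (adjusted p 0.00368) in DMSO. Cell cycle regulators showed no common direction, with *Myc* higher (0.41 ± 0.10) and *Mycn* (-0.40 ± 0.08) and *Btg2* (-0.58 ± 0.12) lower among 14, and *Ccnd1*, *Cdkn1a* and *Cdkn1c* at 0.18, 0.10 and -0.05.

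The promoters of these genes are shown because their members moved together. They are the 250 bases before the start site in RefSeq (GRCm38.p6), and 21 of the 25 mitosis genes had an entry. The pentamer CCAAT, read on both strands, was present in 17 of the 21 (81%) and in 34.5% of 27025 promoters of the same length. TTTGAA, the core of the cell cycle homology region (CHR), was present on either strand in 7 of 21 (33.3%) and in 16.3% of all. Capitals mark both motifs in *Cdk1* (chr10:69352913-69353162, minus strand), *Ccnb1* (chr13:100786487-100786736, minus strand) and *Plk1* (chr7:122159185-122159434, plus strand), and a match of letters does not show that a factor binds.
Cdk1: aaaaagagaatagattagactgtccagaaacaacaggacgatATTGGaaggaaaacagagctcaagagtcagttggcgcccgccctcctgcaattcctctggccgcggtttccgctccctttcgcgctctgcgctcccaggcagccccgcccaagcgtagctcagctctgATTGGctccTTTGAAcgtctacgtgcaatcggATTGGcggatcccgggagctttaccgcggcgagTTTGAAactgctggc
Ccnb1: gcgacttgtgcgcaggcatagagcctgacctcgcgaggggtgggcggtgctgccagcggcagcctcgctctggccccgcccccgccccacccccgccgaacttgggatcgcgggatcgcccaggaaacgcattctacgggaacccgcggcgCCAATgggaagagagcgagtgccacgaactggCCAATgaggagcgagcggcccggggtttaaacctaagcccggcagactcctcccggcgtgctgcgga
Plk1: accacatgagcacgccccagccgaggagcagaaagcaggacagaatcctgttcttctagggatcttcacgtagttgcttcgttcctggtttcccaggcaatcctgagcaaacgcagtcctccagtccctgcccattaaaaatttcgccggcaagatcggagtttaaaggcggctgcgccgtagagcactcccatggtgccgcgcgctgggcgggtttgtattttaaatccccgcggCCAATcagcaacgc
*Cdk1* holds both motifs, with its CCAAT matches on the strand opposite to the printed one, while *Ccnb1* and *Plk1* hold CCAAT in the printed orientation and no TTTGAA in this window.

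**Figure D4:**
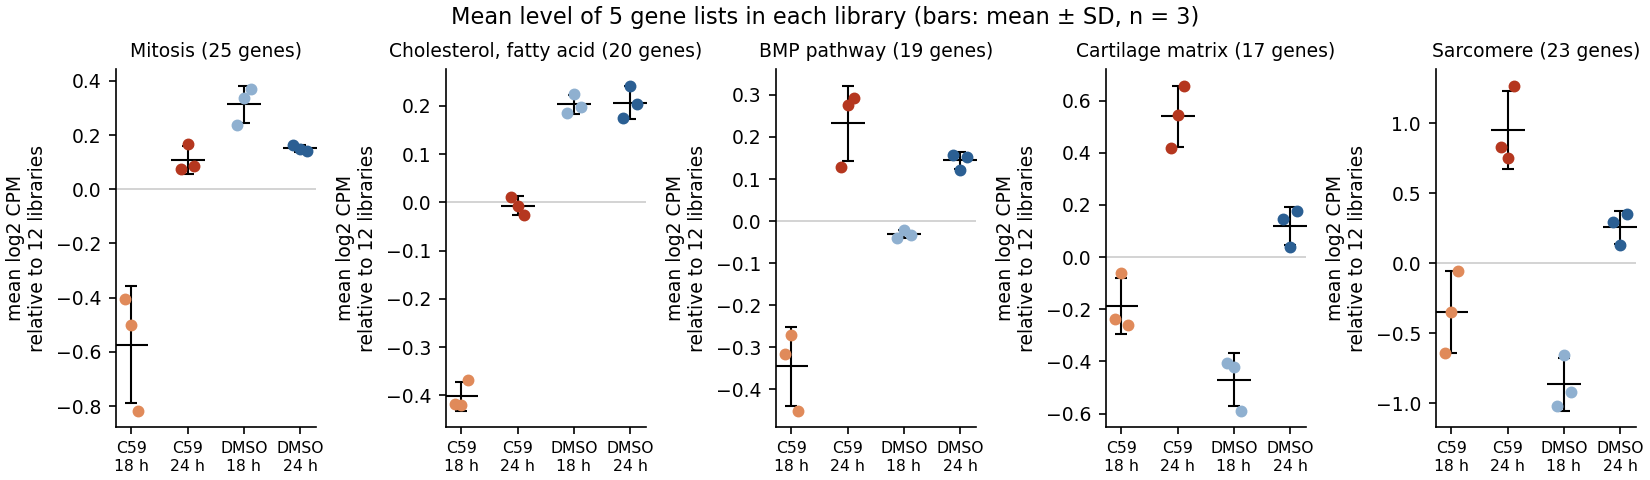
Mean log2 CPM of the genes of 5 lists in each library, relative to the mean of the gene over 12 libraries (vertical axes), with bars for the mean and SD (n = 3). The mitosis and the cholesterol lists were lowest at C59 18 h, and at C59 24 h the mitosis list lay near its DMSO level while the cholesterol list, at -0.027 to 0.012, was below the 0.174 to 0.242 of DMSO at 24 h. By contrast the sarcomere and cartilage matrix lists rose in both treatments and were highest at C59 24 h.

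Cholesterol and fatty acid synthesis genes had small changes in 1 direction. Of 20 genes 19 had positive values, 7 rose, *Fasn* fell and none was called, with a median of 0.332 in C59 and -0.034 in DMSO. The change was larger in C59 for 8 and smaller for none. The number that rose depended on single libraries. It was 15 without C59 18 h replicate 3 and 15 with offsets, but 2 without C59 24 h replicate 2 or replicate 3. *Insig1* (ENSMUSG00000045294, chr5:28071363-28078662), the sterol-sensing retention factor whose gene is a target of SREBP, held 38.4, 39.3 and 40.0 CPM at 18 h and 73.5, 77.1 and 77.8 CPM at 24 h in C59. The libraries of each time point lay close together and the time points far apart. DMSO libraries held 80.5, 74.6 and 81.4 CPM at 18 h and 71.7, 82.0 and 83.0 CPM at 24 h. It rose by 0.91 ± 0.08 (adjusted p 0.00125), with a difference to DMSO of 0.93 ± 0.10 (adjusted p 0.000353). *Idi1*, *Msmo1*, *Hmgcs1*, *Sqle* and *Cyp51*, enzymes of the pathway, rose by 0.88 ± 0.16, 0.82 ± 0.17, 0.58 ± 0.12, 0.53 ± 0.08 and 0.39 ± 0.09. *Fasn*, the fatty acid synthase, fell by 0.60 ± 0.12 (adjusted p 0.0141), and with offsets its value was -0.19 ± 0.06 (adjusted p 0.0607).

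Cartilage genes were examined as factors and as matrix genes. Of 14 chondrogenic factors *Runx3*, *Barx1* and *Wwp2* rose and *Sox5* fell. Without C59 18 h replicate 3 *Sox9*, *Sox6* and *Barx2* fell as well, and with offsets *Sox6* did. *Sox9* (ENSMUSG00000000567, chr11:112782224-112787760), the factor that specifies the lineage, stood at 329.8, 324 and 235 CPM at 18 h and 219.8, 279 and 288 CPM at 24 h with overlapping groups (-0.22 ± 0.15, adjusted p 0.386). *Sox5*, its partner, fell by 0.73 ± 0.16 (adjusted p 0.0235), and *Sox6* had -0.61 ± 0.18 (adjusted p 0.0628). Both changes were lower than in DMSO, with differences of -0.74 ± 0.19 and -0.81 ± 0.21 (interaction adjusted p 0.0341 and 0.0352). *Runx3* (ENSMUSG00000070691, chr4:135120652-135177990), a factor of chondrocyte maturation, rose from 1.08, 1.05 and 1.15 CPM to 6.46, 6.98 and 7.22 CPM. DMSO libraries held 2.60, 3.16 and 3.3 CPM at 18 h and 5.66, 4.65 and 7.65 CPM at 24 h. The rise of 2.61 ± 0.17 (adjusted p 0.000465) was larger than in DMSO by 1.65 ± 0.28 (adjusted p 0.00436). *Barx1*, a joint and mesenchyme homeobox gene, rose by 1.20 ± 0.26 (adjusted p 0.0207), a call lost when C59 18 h replicate 2 or C59 24 h replicate 1 or 2 was left out, with adjusted p-values of 0.0672, 0.0643 and 0.0964.

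Of 17 cartilage matrix genes 8 rose and none fell, with 4 called and a median of 0.638, against 0.406 and 9 increases in DMSO. Without C59 18 h replicate 3, 10 rose, 1 fell and 6 were called higher, and with offsets 11 rose and 5 were called higher. *Matn1* (ENSMUSG00000040533, chr4:130944385-130955475), which encodes matrilin 1, rose from 2.38, 2.7 and 3.36 CPM to 25.4, 26.5 and 27.7 CPM. This increase of 3.19 ± 0.15 (adjusted p 5.13e-05) was accompanied by one of 2.52 ± 0.17 in DMSO, and the difference of 0.67 ± 0.23 did not pass the test (adjusted p 0.103). *Acan*, the aggrecan gene, rose by 1.34 ± 0.21 (adjusted p 0.00557), *Papss2*, which supplies sulfate for proteoglycans, by 1.39 ± 0.14 (adjusted p 0.00152), and *Epyc*, a small proteoglycan, by 1.77 ± 0.30 (adjusted p 0.00823). *Ihh*, the hedgehog ligand of maturing chondrocytes and one of the 15 largest increases, went from 0.374, 0.549 and 0.192 CPM to 4.96, 3.69 and 5.09 CPM (3.56 ± 0.33, adjusted p 0.00125), with 3.74 ± 0.25 (adjusted p 0.000252) in DMSO. The main collagens were level in C59, *Col2a1* at -0.22 ± 0.09 and *Col9a1* at -0.02 ± 0.09, and both were lower in their change than in DMSO (-0.46 ± 0.12 and -0.42 ± 0.12, interaction adjusted p 0.0359 and 0.0442).

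Joint interzone genes went both ways. Of 9, *Gdf6*, *Gdf5*, *Erg* and *Osr1* rose and *Osr2* and *Sfrp2* fell. *Gdf6* stood at 6.27, 6.44 and 6.52 CPM at 18 h and 16., 14. and 17.1 CPM at 24 h (1.25 ± 0.13, adjusted p 0.00152) and *Gdf5*, the interzone marker, at 21.9, 23.2 and 19.9 CPM at 18 h and 34.5, 32.5 and 34.4 CPM at 24 h (0.60 ± 0.10, adjusted p 0.00759). *Osr2*, a zinc finger factor of the joints, fell from 71.3, 81.0 and 73.6 CPM to 32.9, 36.7 and 36.8 CPM. Its change of -1.13 ± 0.10 (adjusted p 0.00112) was lower than that of DMSO, with a difference of -0.79 ± 0.12 (adjusted p 0.00222).

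Connective tissue and tendon genes numbered 23, of which 10 rose and 5 fell, with a median of 0.049 in C59 and 0.309 in DMSO. Without C59 18 h replicate 3, 11 rose and 6 fell, and with offsets 13 rose and 4 fell. The small leucine-rich proteoglycan *Lum* held 24.9, 31.2 and 20.8 CPM at 18 h and 67.2, 82.0 and 84.3 CPM at 24 h (1.56 ± 0.16, adjusted p 0.00152), a larger rise than in DMSO by 1.04 ± 0.17 (adjusted p 0.00359), and *Dcn* rose by 1.21 ± 0.19 (adjusted p 0.00547). *Kera* (ENSMUSG00000019932, chr10:97606879-97613692), a member of the same family and among the 15 largest increases, rose from 1.5, 1.05 and 1.15 CPM to 6.96, 11.5 and 10.4 CPM, while DMSO libraries held 11.2, 11.5 and 10.6 CPM at 18 h and 15., 19.4 and 17.0 CPM at 24 h. Its rise of 2.91 ± 0.25 (adjusted p 0.00112) exceeded that of DMSO by 2.31 ± 0.27 (adjusted p 0.000433). *Mkx*, a tendon factor, rose by 0.90 ± 0.11 (adjusted p 0.00285).

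*Col1a1*, of the main fibrillar collagen, stood at 357, 379.7 and 427 CPM at 18 h and 379, 307 and 449.5 CPM at 24 h in C59 with overlapping groups. It rose by 0.82 ± 0.08 in DMSO, and the difference was -0.90 ± 0.17 (adjusted p 0.00812). *Vcan* (ENSMUSG00000021614, chr13:89655312-89742509), the large proteoglycan of precartilage mesenchyme, fell from 1397, 1169 and 776 CPM to 335, 416 and 469 CPM. The groups did not overlap, although C59 18 h replicate 3 lay closest to the later ones. Its change was -1.5 ± 0.21 (adjusted p 0.0037), and *Fn1* (fibronectin), *Fbn2* and *Fbn1* (fibrillins) and *Col12a1* fell as well (-0.96 ± 0.12, -0.78 ± 0.12, -0.74 ± 0.15 and -0.72 ± 0.16). Their transcripts are long, 12427 bases for *Vcan*, 8315 for *Fn1*, 11041 for *Fbn2* and 11971 for *Fbn1*. With GC and length offsets the values were -1.09 ± 0.10, -0.68 ± 0.09, -0.36 ± 0.08 and -0.28 ± 0.10, the last no longer past the test (adjusted p 0.0666), and the list median was 0.429.

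Muscle genes gave the largest share of calls. Of 23 sarcomere and neuromuscular genes 17 were called higher in C59 and 18 rose, with none lower and a median of 1.326. In DMSO 15 were called higher, with a median of 1.078. The number that rose lay between 14 and 20 without single C59 libraries, and was 20 without C59 18 h replicate 3 and 19 with offsets. *Acta1* (ENSMUSG00000031972, chr8:123891769-123894751), the skeletal alpha-actin gene, held 7.90, 12.4 and 18.9 CPM at 18 h and 60.0, 54.8 and 81.2 CPM at 24 h. The lowest library at 24 h was well above the highest at 18 h, and DMSO libraries held 5.84, 6.26 and 5.94 CPM at 18 h and 21.3, 15.7 and 28.6 CPM at 24 h. Its rise was 2.27 ± 0.29 (adjusted p 0.00285) in C59 and 1.83 ± 0.20 in DMSO. *Myl4*, an embryonic myosin light chain, rose from 3.41, 4.79 and 6.04 CPM to 31.2, 31.3 and 47.4 CPM (2.90 ± 0.24, adjusted p 0.0011), and *Tnnc1*, the slow troponin C gene, from 5.52, 7.34 and 10.4 CPM to 47.0, 37.8 and 57.0 CPM (2.56 ± 0.24, adjusted p 0.00125). *Chrna1* and *Musk*, a receptor subunit and the organising kinase of the neuromuscular junction, rose by 1.33 ± 0.21 and 1.52 ± 0.25. *Ttn* and *Neb*, the giant scaffold genes, had values of -0.20 ± 0.30 and -0.28 ± 0.28 that did not pass the test.

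At 24 h 9 of the 23 muscle genes stood higher in C59 than in DMSO and none lower, *Acta1* by 1.59 ± 0.26 (adjusted p 0.00694), in a contrast that 241 of 13794 genes passed in either direction (1.75%). The median difference between the treatments was 0.552 at 18 h and 0.75 at 24 h. The change between the time points differed past the threshold only for *Tnnt3* (1.26 ± 0.34, adjusted p 0.0436). No gene of the list passed without C59 18 h replicate 1 or 2, C59 24 h replicate 2, DMSO 18 h replicate 1 or 2, or DMSO 24 h replicate 1 or 2, and 4 passed without C59 18 h replicate 3.

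The upstream muscle factors gave 5 increases among 14 and none lower. Without C59 18 h replicate 3, 9 rose, and with offsets 7 rose and *Pax3* fell. *Myf5*, the determination factor, stood at 5.57, 6.09 and 5.18 CPM at 18 h and 9.71, 12.0 and 13.7 CPM at 24 h (1.02 ± 0.16, adjusted p 0.00538) and was level in DMSO (-0.02 ± 0.10), a difference of 1.05 ± 0.18 (adjusted p 0.00473). It fell under the fold limit without C59 18 h replicate 3 (0.97), without C59 24 h replicate 3 (0.91) and with offsets (0.82). *Lbx1*, of migrating precursors, rose by 0.65 ± 0.12 and differed from DMSO by 1.07 ± 0.15 (adjusted p 0.00137), and *Pax7* and *Msc* rose by 0.95 ± 0.16 and 0.96 ± 0.15. *Mymk*, the gene of the fusion protein myomaker, rose by 1.06 ± 0.28 (adjusted p 0.0428), a call lost without any of the C59 libraries except 18 h replicate 3, and *Myod1* and *Myog* had 0.43 ± 0.14 and 0.16 ± 0.14. The summed level of the 14 factors ranged from 295.3 to 338.8 CPM at 18 h and from 376 to 438.9 CPM at 24 h in C59, and that of the sarcomere list from 381.7 to 582.7 CPM and from 983.3 to 1409 CPM.

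Promoters of 19 of the 24 listed sarcomere genes were available. The E-box CAGCTG, the form preferred by myogenic bHLH factors and the same on both strands, was present in 9 of 19 (47.4%) and in 12.8% of all 27025 promoters. The MEF2 and CArG motifs were each present in 2 of 19, and in 3.01% and 1.4% of all. *Acta1* (chr8:123894776-123895025, minus strand) and *Actc1* (chr2:114052876-114053125, minus strand), the cardiac alpha-actin gene, are shown, with CAGCTG and CArG in capitals.
Acta1: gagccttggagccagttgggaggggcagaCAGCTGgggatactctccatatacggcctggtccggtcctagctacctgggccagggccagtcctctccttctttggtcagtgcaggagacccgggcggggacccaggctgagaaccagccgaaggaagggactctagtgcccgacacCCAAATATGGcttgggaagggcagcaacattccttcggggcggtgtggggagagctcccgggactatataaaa
Actc1: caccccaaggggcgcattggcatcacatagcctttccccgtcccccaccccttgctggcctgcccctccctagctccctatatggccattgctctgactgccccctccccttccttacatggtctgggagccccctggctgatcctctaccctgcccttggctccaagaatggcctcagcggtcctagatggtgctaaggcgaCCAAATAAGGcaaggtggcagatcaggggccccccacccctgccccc
*Acta1* holds 1 CAGCTG and 1 CArG motif, and *Actc1* holds 1 CArG motif and no CAGCTG in this window. The windows of *Myl4* and *Tnnc1*, which rose more than *Acta1* and *Actc1*, are not printed. They held 0 matches of CAGCTG, MEF2 or CArG. *Actc1* stood at 114, 163 and 215 CPM at 18 h and 312, 312 and 402 CPM at 24 h and rose by 1.02 ± 0.21 (adjusted p 0.0185), under the fold limit without C59 18 h replicate 1 (0.81) and with offsets (0.98) and no longer past the test when C59 18 h replicate 2 or C59 24 h replicate 2 or 3 was left out (adjusted p 0.0626, 0.0556 and 0.0778).

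Of 10 *HoxA* and *HoxD* genes *Hoxd13*, the digit gene, rose from 184, 166 and 140.3 CPM to 201, 255 and 238 CPM (0.46 ± 0.12, adjusted p 0.0455), and none fell, while *Hoxd8*, *Hoxd9*, *Hoxd10* and *Hoxa9* fell in DMSO. Without C59 18 h replicate 3 there were 5 decreases in C59 as well (*Hoxa9*, *Hoxa13*, *Hoxd9*, *Hoxd10* and *Hoxd11*), and with offsets 2 (*Hoxd10* and *Hoxd11*). *Hoxd13*, *Hoxd12* and *Hoxa13* were lower than in DMSO at 24 h, with differences of -0.51 ± 0.10, -0.59 ± 0.06 and -0.70 ± 0.11 (adjusted p 0.0139, 0.000412 and 0.00634). Of 8 proximal factors 3 fell, among them *Meis2* (-0.47 ± 0.09) and *Irx3* (-0.50 ± 0.11), and none rose. None of the 8 differed from DMSO in its change.

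Among 17 anterior-posterior factors 3 rose and 4 fell. *Pax9* (ENSMUSG00000001497, chr12:56691767-56712822), an anterior and distal mesenchyme factor, held 3.79, 4.40 and 4.79 CPM at 18 h and 10.1, 12.0 and 11.2 CPM at 24 h and rose by 1.32 ± 0.15 (adjusted p 0.00212), more than in DMSO by 0.90 ± 0.17 (adjusted p 0.00771). *Lhx2*, which relays FGF signals in distal mesenchyme, rose by 0.55 ± 0.11 (adjusted p 0.017) while it fell by 0.22 ± 0.06 in DMSO (difference 0.77 ± 0.13, adjusted p 0.00394). *Pax1* was level in C59 (-0.03 ± 0.12) and fell by 0.75 ± 0.06 in DMSO (difference 0.72 ± 0.14, adjusted p 0.00856). *Sall4*, *Asb4*, *Sall3* and *Alx4* fell in C59 (-0.94 ± 0.21, -0.72 ± 0.13, -0.54 ± 0.14 and -0.42 ± 0.10) and in DMSO (-0.92 ± 0.14, -0.50 ± 0.05, -0.77 ± 0.11 and -0.39 ± 0.05). *Hand2*, the posterior factor upstream of *Shh*, had -0.19 ± 0.12.

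Of 10 heterochronic genes 3 fell in C59 and none rose (*Trim71* at -0.92 ± 0.12, *Arid3a* at -0.60 ± 0.09 and *Igf2bp1* at -0.38 ± 0.09), against 8 decreases in DMSO, and none differed in its change. *Trim71*, a let-7 target, stood at 30.1, 26.0 and 25.9 CPM at 18 h and 14.7, 16.2 and 13.8 CPM at 24 h. Of 17 genes of the insulin-like growth factor and imprinted list *Dcn* and *Igfbp3* rose and *Peg10*, *Igf1r*, *Igf2r* and *Peg3* fell, while 4 rose and 6 fell without C59 18 h replicate 3. *Peg10*, an imprinted retrotransposon-derived gene, fell from 1810, 1654 and 1489 CPM to 803, 868 and 832 CPM (-1.03 ± 0.10, adjusted p 0.00125), under the fold limit without C59 18 h replicate 1 (-0.95) and with offsets (-0.92). *Igf1r* and *Igf2r*, receptors with transcripts of 11409 and 8887 bases, had changes of -0.81 ± 0.09 and -0.79 ± 0.11, and of -0.41 and -0.50 with offsets.

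In the retinoic acid list of 13, *Cyp26b1*, the distal retinoic acid hydroxylase, fell from 294, 251 and 309 CPM to 169, 157 and 150.5 CPM (-0.88 ± 0.10, adjusted p 0.00231), with a difference to DMSO of -0.54 ± 0.12 (adjusted p 0.0198), and was lower than in DMSO at 24 h (-0.57 ± 0.09, adjusted p 0.00543). *Crabp1*, a retinoic acid binding protein, rose by 0.92 ± 0.20 (adjusted p 0.0235), and 3 genes of the list rose without C59 18 h replicate 3. In the Notch list of 14, *Notch2*, *Notch1*, *Notch3*, *Dll1* and *Jag1* fell and none rose, while 2 rose and 6 fell without C59 18 h replicate 3. The receptors *Notch1*, *Notch2* and *Notch3*, with transcripts of 8016 to 10500 bases, had changes of -0.75 ± 0.12, -0.85 ± 0.11 and -0.68 ± 0.12, and of -0.38, -0.45 and -0.38 with offsets. *Dll1*, a ligand, fell by 0.62 ± 0.16, and the targets *Hes1* and *Hey1* had 0.21 ± 0.14 and 0.47 ± 0.14.

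Ribosome biogenesis genes gave no increase and 2 decreases among 18 (*Polr1a* and *Utp20*), with a median of 0.094, and 3 increases without C59 18 h replicate 3. Of 15 amino acid response genes *Psat1*, of serine synthesis, rose from 86.7, 76.7 and 78.9 CPM to 138, 146 and 136 CPM (0.75 ± 0.09, adjusted p 0.00225, with a difference to DMSO of 0.78 ± 0.10), *Mthfd2* and *Asns* rose by 0.42 ± 0.10 and 0.38 ± 0.10, and *Sesn2* fell by 0.41 ± 0.11. The increases of that list numbered 7 without C59 18 h replicate 3 and 6 with offsets. Hypoxia and glycolysis genes gave no increase and 3 decreases among 20 (*Hk2*, *Pfkfb3* and *Egln3*), with *Vegfa* at 0.03 ± 0.13, and the decreases were 5 without C59 18 h replicate 3 and 7 with offsets. None of 11 heat shock genes rose or fell, while 1 rose without C59 18 h replicate 3. In the p53 and cell death list of 12, *Pmaip1*, which encodes the death factor NOXA, was called lower (-1.23 ± 0.23, adjusted p 0.011), as in DMSO (-1.19 ± 0.10), a call lost without C59 24 h replicate 3 (-1.10, adjusted p 0.055). *Zmat3*, *Bcl2l11* and *Sesn2* of that list also fell. Of 10 immediate early genes *Klf4* rose by 1.0 ± 0.16, *Egr1* by 0.60 ± 0.16, and *Jun* fell by 0.59 ± 0.08 and was lower in its change than in DMSO (-0.58 ± 0.10, adjusted p 0.00523). Of 15 clock genes *Hlf* rose (1.25 ± 0.29) and *Per3*, *Tef* and *Ciart* fell. The rise of *Hlf* was lost when C59 18 h replicate 2 or any of the C59 24 h libraries was left out, with adjusted p-values of 0.0838, 0.0639, 0.0707 and 0.1.

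Markers of the cell types in a limb bud gave the following counts. Of 7 mesenchyme markers *Msx1*, *Twist2* and *Prrx2* rose and none fell, and *Prrx1* stood at 796, 696 and 488 CPM at 18 h and 582, 733 and 704 CPM at 24 h. *Pitx1*, one of 3 hindlimb factors, rose from 0.655, 1.40 and 1.63 CPM to 4.08, 2.83 and 4.36 CPM (1.56 ± 0.33, adjusted p 0.0189), a call lost when C59 18 h replicate 2 or C59 24 h replicate 1 or 3 was left out, with adjusted p-values of 0.0516, 0.0633 and 0.0741. The summed level of those 3 factors stayed between 17 and 19.12 CPM in the 6 libraries, but most of it was *Tbx4*. The mean of *Tbx4* went from 15.5 CPM at 18 h to 11.8 CPM at 24 h. That of *Isl1* went from 1.14 to 2.18 CPM, and neither gene passed the test. The list median was 0.894. Of 17 ectoderm markers *Krt15* and *Krt14* rose and *Krt8*, *Krt18* and *Cdh1* fell, and 5 fell without C59 18 h replicate 3. *Krt8*, a keratin of simple and periderm epithelium, went from 13.5, 14.8 and 17.9 CPM to 6.25, 7.17 and 7.02 CPM (-1.22 ± 0.14, adjusted p 0.0024). The ectoderm sum was between 603.4 and 680.2 CPM at 18 h and between 633.1 and 696.6 CPM at 24 h.

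Of 11 erythroid markers *Hbb-bs*, an adult globin, rose by 0.78 ± 0.19, and 5 fell, among them *Hemgn*, *Hbb-bh1*, *Klf1* and *Slc4a1*. *Hemgn*, of erythroid progenitors, fell from 17.8, 17.4 and 15.2 CPM to 5.21, 5.39 and 5.62 CPM (-1.68 ± 0.12, adjusted p 0.000708), and fell in DMSO (-1.0 ± 0.17). The erythroid sum ranged from 5073 to 7768 CPM at 18 h and from 3996 to 6033 CPM at 24 h, with C59 18 h replicate 3 highest. None of 15 macrophage markers rose or fell, and their sum lay between 85.64 and 99.39 CPM in all 6 libraries. Of 15 endothelial markers *Cdh5*, *Kdr*, *Tie1* and *Sox17* fell and none rose, with sums of 562.4 to 633.2 CPM and 489.2 to 552.8 CPM. Of 8 markers of Schwann cell precursors *Ngfr* and *Mia* were called higher (1.33 ± 0.18, adjusted p 0.0031, and 1.46 ± 0.13, adjusted p 0.00125), and the sum of the list ranged from 128 to 157 CPM at 18 h and from 197.2 to 251.3 CPM at 24 h, with the defining *Sox10* at 0.67 ± 0.22 and *Foxd3* at 1.0 ± 0.34. Without C59 18 h replicate 3, 5 of the 8 rose and 4 were called, and with offsets 4 rose and 3 were called. Cartilage also makes *Mia*. Of 9 neuron markers 5 passed the filter and none rose or fell, while 1 rose with offsets. The part of these cell types in the changes above was not tested.

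The 15 largest increases, ranked by log2 fold change among called genes with non-overlapping groups and a mean of at least 1 CPM, included the muscle genes *Myl4*, *Xirp1* and *Myom2*, the cartilage genes *Matn1*, *Ihh* and *Scrg1*, and *Kera* and *Sfrp5*. *Scrg1*, expressed by chondrogenic cells, stood at 0.14, 0.05 and 0.24 CPM at 18 h and 1.29, 1.59 and 1.36 CPM at 24 h, *Xirp1*, an actin-binding muscle protein, at 0.14, 0.25 and 0.0959 CPM at 18 h and 1.5, 1.44 and 1.65 CPM at 24 h, and *Myom2*, the M-band protein myomesin 2, at 0.374, 0.799 and 0.815 CPM at 18 h and 4.71, 3.96 and 6.34 CPM at 24 h. *Myh15* (ENSMUSG00000092009, chr16:49057486-49199104), a myosin heavy chain gene, rose from 0.187, 0.4 and 0.0959 CPM to 3.04, 3.49 and 2.33 CPM, and *Rfx4*, a transcription factor, from 0.0935, 0.4 and 0.144 CPM to 2.71, 1.78 and 2.47 CPM. Both were higher in DMSO, with 2.92, 2.7 and 2.27 CPM at 18 h and 5.46, 7.38 and 5.75 CPM at 24 h for *Myh15* and 2.76, 2.44 and 1.78 CPM at 18 h and 5.25, 4.33 and 4.52 CPM at 24 h for *Rfx4*. The changes of 3.64 ± 0.40 and 3.39 ± 0.44 exceeded those of DMSO by 2.44 ± 0.44 (adjusted p 0.00592) and 2.41 ± 0.48 (adjusted p 0.00946). *Gng4*, a G protein subunit, rose from 0.187, 0.0999 and 0.288 CPM to 2.46, 1.55 and 2.33 CPM. *Npy*, the neuropeptide Y gene, was at 0, 0 and 0.0479 CPM and then at 2.08, 1.24 and 1.26 CPM, and *A530016L24Rik* at 0, 0.05 and 0 CPM and then at 0.625, 1.05 and 1.31 CPM. Their 18 h groups hold too few counts for a fold change.

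The 15 largest decreases were mostly genes of low level. *Igdcc3* (ENSMUSG00000032394, chr9:65141189-65185872), an immunoglobulin superfamily receptor of the embryo, fell from 76.7, 62.9 and 67.2 CPM to 22.1, 22.2 and 18.9 CPM (-1.75 ± 0.12, adjusted p 0.000465). It fell in DMSO as well (-1.15 ± 0.10), and the difference was -0.60 ± 0.16 (adjusted p 0.0444). *Mt1*, a metallothionein, fell from 18.8, 16.7 and 25.0 CPM to 6.87, 5.39 and 6.05 CPM (-1.77 ± 0.18, adjusted p 0.00156), with a difference to DMSO of -1.31 ± 0.26 (adjusted p 0.00861). *Trpm6*, a magnesium channel, *Foxi2*, a forkhead factor, *2810459M11Rik*, *Myo5c*, an unconventional myosin, *Chrm4*, a muscarinic receptor, *Cpz*, a carboxypeptidase, and *Atp8b5*, a flippase subunit, all averaged at most 2.90 CPM at 18 h, with changes from -2.09 (*Trpm6*) to -1.72 (*Atp8b5*). Of these, *Foxi2*, *Chrm4*, *Cpz* and *Atp8b5* lost their call when single libraries were left out.

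Several of the largest values came from genes whose level switched between groups. Reads of a gene with similar copies can be assigned to another copy, which was not tested for these genes and leaves their counts uncertain. *Gm4737* (ENSMUSG00000048087, chr16:46152985-46155077) stood at 0.374, 0.499 and 0.863 CPM at 18 h and 83.2, 86.5 and 104 CPM at 24 h in C59, but at 0.926, 48.4 and 24.4 CPM in the DMSO libraries of 24 h. *Tpm3-rs7*, named as a copy of the tropomyosin gene *Tpm3*, held 3.74, 2.05 and 1.53 CPM at 18 h and 96.9, 130.2 and 112 CPM at 24 h in C59 and 182, 170.4 and 181 CPM at 18 h and 3.14, 2.93 and 57.5 CPM at 24 h in DMSO. *Nr1h5* (ENSMUSG00000048938, chr3:102939658-102964133), a nuclear receptor gene, stood at 18.1, 7.74 and 6.81 CPM at 18 h and had no count in the 3 libraries at 24 h. That makes it at least 255-fold lower, with a floor of 3 counts over the group. In DMSO it was at 0, 10.2 and 0 CPM at 18 h and 0 in all 3 libraries at 24 h. All of these genes differed widely among DMSO libraries of 1 group as well as between time points. At 1 h the means of *Tpm3-rs7* were 3.21 CPM in DMSO and 281 CPM in C59, and those of *Nr1h5* 0 and 26.2 CPM. The cause of these differences was not tested.

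*Rpl26*, a ribosomal protein gene, fell from 305, 165 and 221 CPM to 40.2, 20.7 and 31.5 CPM in C59. Its DMSO libraries held 26.0, 27.6 and 34.0 CPM at 18 h and 33.3, 38.5 and 33.7 CPM at 24 h. High values of *Rpl26* were not limited to C59 at 18 h. Its means were 34.6 CPM in DMSO and 140 ± 89.3 CPM in C59 at 1 h (SD, n = 3). At 6 h they were 175 ± 62.1 CPM in DMSO and 32.7 CPM in C59. The zinc finger genes *Zfp979*, *Zfp984* and *Zfp985* lie next to each other on chromosome 4, between 147553277 and 147809788, and the lincRNA *Gm20707* overlaps *Zfp984*, so that their reads could not be told apart where they overlap. *Zfp984* fell from 10.1, 16.2 and 8.29 CPM to 0.625, 0.272 and 0.581 CPM in C59, and DMSO libraries held 11.9, 8.16 and 13.2 CPM at 18 h and 15.3, 17.2 and 17.2 CPM at 24 h. *Zfp979* fell from 6.83, 6.84 and 2.97 CPM to 0.0833, 0.116 and 0 CPM. The differences to DMSO were -5.17 ± 0.42 (adjusted p 4.05e-05) and -6.69 ± 0.61 (adjusted p 0.000123), and -4.53 ± 0.67 (adjusted p 0.00192) for *Zfp985*. *Gm10320* fell in C59 (-3.07 ± 0.44, adjusted p 0.00408) and rose in DMSO (3.72 ± 0.46, adjusted p 0.00158), and *Gm10031* rose in C59 (3.22 ± 0.45, adjusted p 0.00375) at a DMSO change of 0.03 ± 0.22. *Lipo2* and *Padi4* complete the genes with the largest differences. *Lipo2*, of the lipase family, held 0, 0.15 and 0.0959 CPM at 18 h and 0.667, 0.776 and 0.92 CPM at 24 h in C59. Its DMSO libraries held 0.919, 1.31 and 1.08 CPM at 18 h and 0.154, 0.0391 and 0 CPM at 24 h. *Padi4*, a histone deiminase, held 9.91, 8.44 and 13.9 CPM at 18 h and 8.08, 7.64 and 6.30 CPM at 24 h in C59. Its DMSO libraries held 0.162, 0.0535 and 0.162 CPM at 18 h and 1.08, 4.49 and 0.911 CPM at 24 h. The means of *Padi4* at 6 h were 3.615 CPM in DMSO and 3.08 CPM in C59.

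In the fit over all 15504 genes of the table, 421 were called (2.72%). The largest non-coding increases were *Gm42047*, *Gm6505*, *Gm8515*, *3300002P13Rik* and *Gm6768*, and the largest decreases *Gm20707*, *Gm7240*, *B830012L14Rik*, *Gm45779* and *Rps2-ps6*. *Gm42047*, a lincRNA, held 0, 2.15 and 1.39 CPM at 18 h and 30.3, 40.8 and 42.5 CPM at 24 h in C59 and 99.7, 38.0 and 75.5 CPM at 18 h and 25.4, 43.2 and 36.1 CPM at 24 h in DMSO. *Gm20707* held 3.65, 3.35 and 2.11 CPM at 18 h and 0.0417, 0.349 and 0.0484 CPM at 24 h, and *Gm7240*, a transcribed pseudogene, 11.5, 6.89 and 2.25 CPM at 18 h and 0.75, 1.164 and 0.0484 CPM at 24 h. Of the 10, 5 are annotated as pseudogenes, so their counts share the uncertainty above.

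To place the C59 libraries on the normal course of the interval, each library was given a position from the 154 genes called higher and the 21 called lower in DMSO, as the mean log2 CPM of the first minus that of the second. DMSO at 18 h was set to 0% and DMSO at 24 h to 100%, a distance of 2.417 log2 units. C59 libraries took no part in the choice of these genes. The DMSO libraries that chose them also set the ends of the axis. This choice can widen the DMSO distance, lower the C59 share of it and narrow the DMSO spread. The 3 libraries at 18 h lay at 40.1%, 42.6% and 53.7% (45.5 ± 7.2, SD, n = 3), and those at 24 h at 89.2%, 86.4% and 106.2% (93.9 ± 10.7). The C59 groups did not overlap, and they moved by 48.5% of the DMSO distance, by 52.6% without C59 18 h replicate 3 and by 51% with offsets. C59 libraries thus lay between the DMSO time points at 18 h and close to DMSO 24 h at 24 h on this measure, which averages over genes and does not describe any single gene.

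**Figure D5:**
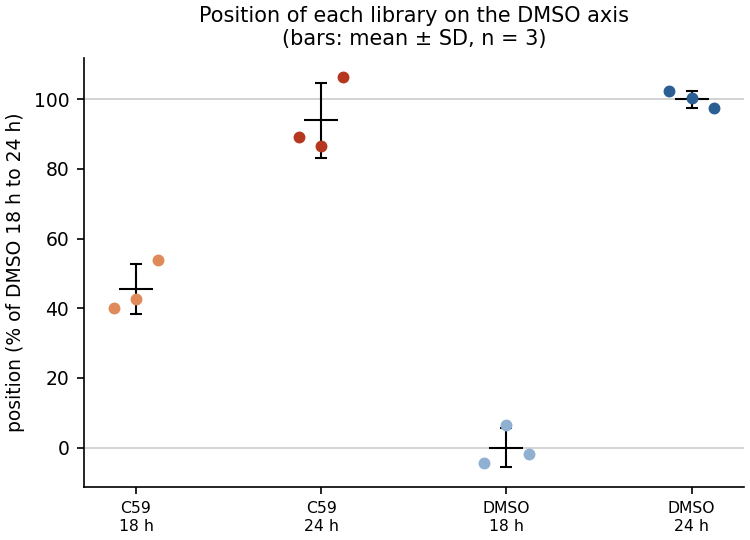
Position of each library (vertical axis, percent of the distance from the DMSO 18 h mean to the DMSO 24 h mean) by group, with bars for the mean and SD (n = 3). C59 18 h libraries lay at 40.1% to 53.7% and C59 24 h libraries at 86.4% to 106.2%, while DMSO libraries scattered with an SD of 5.7 and 2.4. The same DMSO libraries chose the genes of the axis, which can lower their SD.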

How the data were processed

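Forelimb buds of embryos exposed to C59 or DMSO were profiled by polyA RNA-seq in 3 libraries a group. The authors trimmed reads with cutadapt 1.16, aligned and counted them with STAR 2.7.0e, and deposited raw counts per gene of the autosomes, together with FPKM values from Cufflinks 2.2.1 that also cover the sex chromosomes. The labels' processing notes name the tools, and the methods ran Cufflinks as for libraries without strand, while the strand setting of the counts is not given in the sources used here. Groups were taken from the labels. The methods name a pair of forelimb buds for each replicate and state that each group drew on embryos of several litters. The labels do not tie libraries to litters, and p-values measure the spread between these samples.

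Protein-coding genes of GENCODE M21 (GRCm38) were kept by filterByExpr (minimum count 10, total 15) and tested with edgeR 4.0.16 (R 4.3.3), TMM factors and the quasi-likelihood F test on the 6 C59 libraries. The same test was run on the 6 DMSO libraries, and on 12 libraries for the contrasts between treatments. Calls needed both an adjusted p under 0.05 and more than 1 unit of log2 fold change. Unless stated otherwise values are log2 fold changes ± SE, 24 h over 18 h. On simulated data with 13448 genes, 99 of 100 genes changed by 1.5 and 99 of 100 changed by 2 on the log2 scale were recovered, with 0 false calls. The changed genes had at least 1 CPM on average, and the simulated counts held no GC or length trend. The simulation therefore checks the code and sets no bound on false calls in the real libraries. Alternatives were DESeq2 1.42.0, other size factors, filters, limma 3.58.1 on log2(FPKM + 1), a replicate block and left-out libraries, and, chosen after seeing the data, offsets for GC share and transcript length (mgcv 1.9.3).

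The text names genes of 38 lists (558 genes, 540 of them tested and 4 not found in the table), the 15 called genes at either end of the ranking by change (groups apart, higher group at 1 CPM or more on average), the 5 largest differences to DMSO in each direction and the 5 largest non-coding increases and decreases. Members and lists were chosen with earlier results of these data known, and some listed genes are not reported here by name. Same-numbered libraries did not deviate together (r of -0.404, 0.259 and -0.258 in C59), so the numbers were not taken as pairs. Depths of 19990377 to 25590744 counts leave genes under 1 CPM with few reads.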

Additional observations from a re-analysis of the deposited data

Results flagged for a closer look

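Of the 260 genes named above, 103 had an adjusted p below 0.05 for the difference between the change in C59 and the change in DMSO (interaction, edgeR), 67 with a higher value in C59 and 36 with a lower one. Past a log2 difference of 1 there were 29, with 20 higher and 9 lower. Over all 13794 genes tested for the difference the shares were 6.96% and, past a log2 difference of 1, 1.27%. Genes were named partly for large changes or large differences, so the counts among them are a listing and not a test. Signaling and patterning genes among them were *Shh* (3.26 ± 0.62), *Msx1* (1.66 ± 0.12), *Dkk1* (1.60 ± 0.23), *Etv4* (1.20 ± 0.14) and *Fgf8* (1.19 ± 0.29). *Shh*, near its limit of detection in C59, and *Fgf8* did not pass the test in C59 and fell in DMSO. The cell division genes were *Bub1* (1.18 ± 0.18), *Ccnb1* (1.11 ± 0.09) and *Ube2c* (1.01 ± 0.11). Skeletal and connective tissue genes were *Kera* (2.31 ± 0.27), *Runx3* (1.65 ± 0.28) and *Lum* (1.04 ± 0.17), with *Vcan* (-1.18 ± 0.28) in the other direction. Muscle genes were *Myh15* (2.44 ± 0.44), *Tnnt3* (1.26 ± 0.34), *Lbx1* (1.07 ± 0.15) and *Myf5* (1.05 ± 0.18). *Rfx4* (2.41 ± 0.48) was higher, and *Mt1* (-1.31 ± 0.26), *Padi4* (-4.86 ± 0.89) and *Atp8b5* (-1.80 ± 0.51) were lower.

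The remaining genes may have similar copies, which was not tested, or had almost no counts in a group, so that the fitted value is no bound. They were *Tpm3-rs7* (8.55 ± 1.19), *Lipo2* (7.35 ± 0.87), *A530016L24Rik* (3.95 ± 1.04) and *Gm10031* (3.2 ± 0.54) among the higher ones. The lower ones were *Gm10320* (-6.79 ± 0.69), *Zfp979* (-6.69 ± 0.61), *Zfp984* (-5.17 ± 0.42), *Zfp985* (-4.53 ± 0.67) and *Rpl26* (-3.2 ± 0.33).

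Outside the count table, 4 of the 6 C59 libraries held more than 1 FPKM of both *Xist* and the sum of 4 Y-linked genes, with *Xist* between 26.4 and 52.9 FPKM and the Y-linked sum between 19.3 and 25.0 FPKM. They were C59 18 h replicate 2 and all C59 libraries at 24 h. C59 18 h replicate 1 held 0.0682 FPKM of the Y-linked sum, and C59 18 h replicate 3 held 0.0639 FPKM of *Xist*. Both were also above 1 FPKM in DMSO 18 h replicate 2 and in DMSO 24 h replicates 1 and 3. The part of embryo sex in the changes was not tested.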

How the results depend on the processing

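Of the 390 changes called in C59, the total was 105 with limma on log2(FPKM + 1), 31 with glmTreat against a log2 fold change of 1, 1591 with no minimum fold change, and 235 to 506 when single libraries were left out. Increases (253) numbered 84, 25 and 740 under those 3 alternatives and 155 to 314 without single libraries. Decreases (137) numbered 21, 6 and 851, 67 with log2(FPKM + 0.1), 91 with the replicate block and 69 to 192 without single libraries. The total fell most without C59 24 h replicate 2 (235) or C59 24 h replicate 3 (256), and decreases without C59 24 h replicate 2 (69) or C59 18 h replicate 2 (89). Increases made up 64.9% of the calls, and 80.0%, 79.3% and 80.6% with log2(FPKM + 1), log2(FPKM + 0.1) and glmTreat. The 52 calls in the lists became 32 with log2(FPKM + 1) and 39 to 60 without single libraries, and the 30 genes named as largest changes became 16 and 25 to 30. The 175 calls in DMSO became 1314 with no minimum fold change and 110 (without DMSO 18 h replicate 3) to 208 without single libraries, and the 175 called differences became 960, and 115 (without C59 24 h replicate 2) to 219. The position in C59 moved by 48.5% of the DMSO distance, and by 52.6% without C59 18 h replicate 3. With the replicate block, 198 increases and 91 decreases were called, a total of 289, while same-numbered libraries did not deviate together. The main fit chose the 218 named genes that rose or fell, and the alternatives reused its libraries. A change of sign was therefore unlikely for these genes. Of the 218, 0 had the opposite sign under an alternative that was run. Over all 570 named genes 121 did under at least 1 alternative, such as *Cenpf* (-0.03) and *Mki67* (-0.20) at 0.31 and 0.11 with offsets, and so did 10 of 38 list medians, such as the connective tissue list (0.049, and -0.065 without C59 24 h replicate 3), the WNT ligands (0.025, and -0.057 without C59 18 h replicate 1) and the hedgehog list (-0.015, and 0.055 with offsets). Of the values of 570 named genes, 3 to 18 lost their call without single libraries, 5 with offsets and 39 with log2(FPKM + 1). The causes of these shifts were not tested. Depth limits genes under 1 CPM, and 3 libraries a group limit all calls.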

Other observations

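Genes of the X chromosome were listed only as FPKM values, for which no test was run. *Porcn*, the gene of the enzyme that C59 inhibits, stood at 3.43, 3.31 and 3.47 FPKM at 18 h and 3.86, 3.55 and 3.11 FPKM at 24 h in C59. DMSO libraries held 3.12, 3.21 and 2.39 FPKM at 18 h and 2.94, 3.402 and 3.65 FPKM at 24 h, so that the treatments overlapped at 24 h, while at 18 h the C59 libraries lay above those of DMSO. *Chrdl1*, a BMP antagonist, stood at 18.3, 18.6 and 11.4 FPKM at 18 h and 14.2, 16.9 and 17.2 FPKM at 24 h in C59. Its DMSO libraries held 8.87, 8.49 and 9.15 FPKM at 18 h and 12.6, 11.1 and 9.86 FPKM at 24 h. The C59 libraries were higher than all DMSO libraries at 24 h, and at 18 h C59 18 h replicate 3 was the lowest of its group and above the DMSO libraries as well.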
